A study of Mus musculus with 26 samples.

Results

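The 34 genes described here mark spermatogonia, the germ cells at the base of the seminiferous tubule, and were followed in adult testes of wild-type mice and of 2 knock-in lines. They were chosen by symbol, as genes that tell undifferentiated from differentiating spermatogonia, and all 34 were matched among the 51124 genes of the table. For description they were split into 13 genes of stem cells (*Gfra1*, *Ret*, *Id4*, *Etv5*, *Nanos2*, *Eomes*, *Foxc2*, *Bcl6b*, *Lhx1*, *Tspan8*, *Egr4*, *Pou3f1* and *Glis3*), 13 of progenitors or of the whole undifferentiated population (*Zbtb16*, *Sall4*, *Sall1*, *Lin28a*, *Nanos3*, *Neurog3*, *Foxo1*, *Cdh1*, *Taf4b*, *Pou5f1*, *Upp1*, *Ddit4* and *Uchl1*), 6 of differentiating spermatogonia (*Kit*, *Sohlh1*, *Sohlh2*, *Dmrt1*, *Dmrtb1* and *Rhox13*), and 2 of spermatogonia and early spermatocytes (*Nxf2* and *Tex15*). The split follows common usage of these genes as markers. Several of them are also transcribed outside spermatogonia, and *Dmrt1* is not confined to differentiating spermatogonia.

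Total RNA depleted of ribosomal RNA came from whole testes of 3 genotypes, with 2 libraries each. N1 and N2 were wild type, N3 and N4 *10xPerf*, and N5 and N6 *10xBulge*. *10xPerf* mice carry 10 sites with full complementarity to piR-A, a piRNA of pachytene spermatocytes, within the 3′UTR of endogenous *Ythdc2*, and *10xBulge* mice carry 10 such sites with mismatches to piR-A nucleotides 10 and 11. Both lines were founded by CRISPR/Cas9 on the B6D2F1/J hybrid background, and the 2 libraries of a genotype were from different mice. No age beyond adult and no strain of the wild-type mice was taken from the labels. Immunoprecipitation libraries of the same study were not analysed here.

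Spermatogonial stem cells renew themselves under GDNF, a ligand from Sertoli and peritubular cells that signals through the co-receptor *Gfra1* and the kinase *Ret*. Their progenitors stay undifferentiated under regulators such as *Zbtb16* and *Foxo1*, then respond to retinoic acid, switch on *Kit* and become differentiating spermatogonia on the way to meiosis. In the adult testis they are a small share of all cells, far outnumbered by spermatocytes and spermatids.

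Values are normalized counts, which are counts per gene estimated by salmon and scaled between libraries by DESeq2, and are not whole reads. Approximate depths were 41.1 to 61.6 M reads, so that 3 reads were worth 2.73 to 3.63 normalized counts. The 2 *10xBulge* libraries stood apart from the other 4 along the first principal component, which carried 72.7% of the variance. The 10 spermatid markers, such as *Tnp1*, *Tnp2* and *Prm1*, summed to 550016 to 770282 normalized counts in the wild-type and *10xPerf* libraries and to 2592 and 1317 in the *10xBulge* libraries. In bulk tissue, fewer cells of a type and less RNA per cell cannot be told apart, and a higher level of one cell type's genes cannot be told apart from a lower level of another's RNA. *Ythdc2* itself ranged from 827 to 2458 normalized counts over the 6 libraries, and its genotypes overlapped.

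In wild type the members covered a wide range of levels. *Dmrtb1*, a DM-domain factor known from late spermatogonia, was the highest per length of transcript, at 22294 normalized counts per kb. Its wild-type mean of 41489 was above those of all spermatocyte markers used below, the highest of which had 16931. It lay within the range of the spermatid markers, 1615 to 241957, and the cells that its RNA came from were not tested. *Uchl1*, a deubiquitinase of undifferentiated spermatogonia, followed at 3160 per kb and *Dmrt1*, another DM-domain factor, at 756 per kb. *Kit* stood at 298 normalized counts per kb, *Zbtb16* at 90.7, *Ret* at 41.0 and *Gfra1* at 38.1. *Lhx1*, at 1.46 per kb, and *Nanos2*, at 1.19 per kb, were the lowest of the 34. *Nanos2*, an RNA-binding protein required for stem cell maintenance, had 0 and 3.71 normalized counts for wild type, 2.06 and 0 for *10xPerf*, then 3.63 and 0 for *10xBulge*. It failed the filter, which asked for 10 normalized counts in 2 or more libraries, and was not tested, and no difference in it was detectable at this depth. The other 33 members were tested among 23782 genes.

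The 2 wild-type testes differed from each other in several members. The log2 difference between N1 and N2 was over 1 in size for 7 of 33 members, against 1 of 33 between the *10xPerf* libraries and 3 of 33 between the *10xBulge* libraries. The share of all genes that differed by as much is not given here, so these counts cannot be read as a trait of the members. *Uchl1*, *Bcl6b*, *Neurog3* and *Glis3* were higher in N1, and *Nxf2*, *Taf4b* and *Tex15* were higher in N2. Across the 33 members the ratio of N1 to N2 rose with the GC content of the transcript (Spearman's rho = 0.412, across genes, which are not independent replicates). Over 12426 protein-coding genes it was 0.615. The part of GC content in the comparisons was measured by removing its trend in each library.

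**Figure D1:**
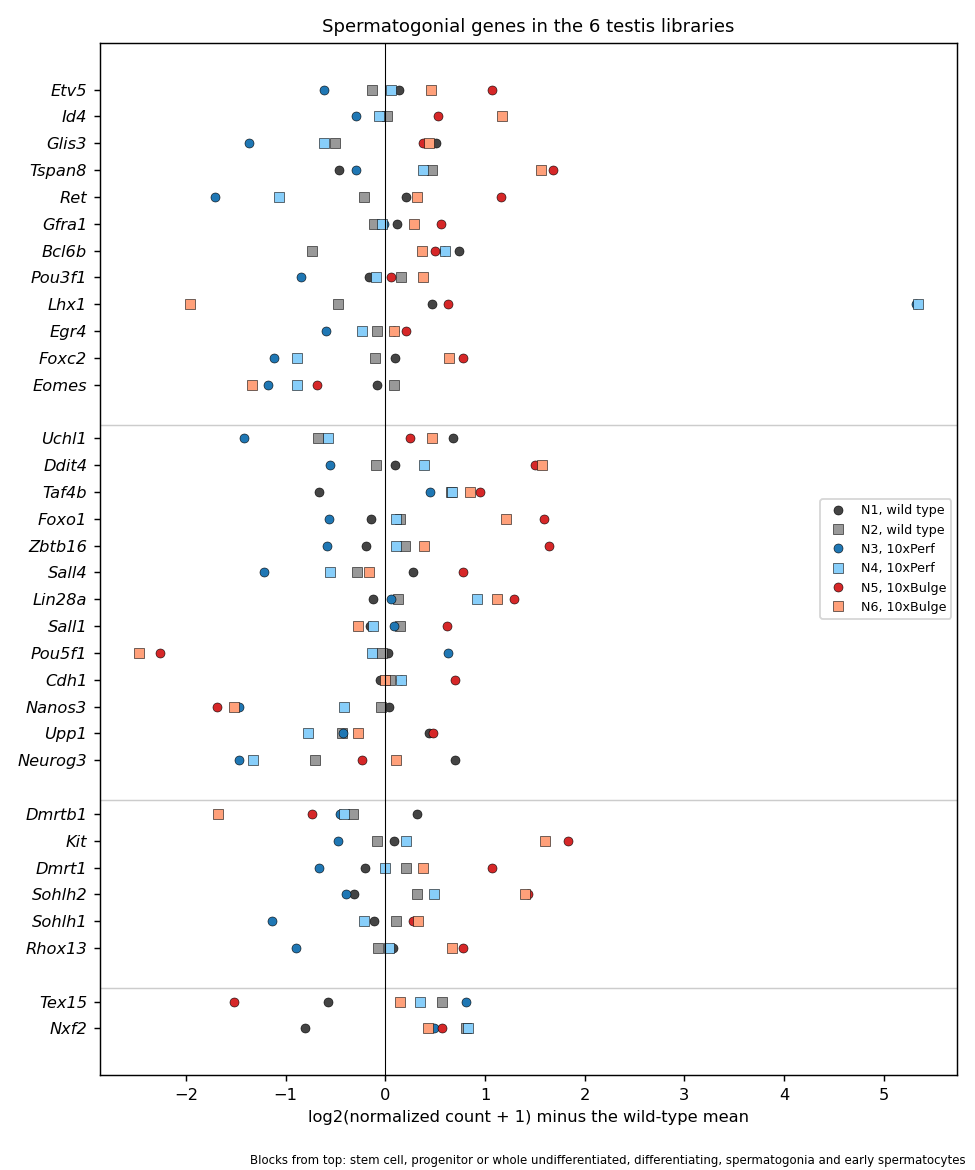
Each row is a member that was tested, each point a library, and the x axis gives log2(normalized count + 1) minus the mean of the 2 wild-type libraries. Both *10xBulge* points lie right of both wild-type points in 17 of 33 rows, and *Lhx1* stands alone in the *10xPerf* libraries.

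The comparison of *10xBulge* with wild type addressed changes of expression in the line with mismatched sites. *Kit*, *Ddit4*, *Foxo1*, *Tspan8*, *Sohlh2* and *Lin28a* rose by 2.30 to 3.29 times, and *Pou5f1*, *Nanos3* and *Dmrtb1* fell. These are 6 higher members of 33, or 18.2%, beside 11.4% of all genes tested, and 3 lower, or 9.09%, beside 23.0% of all genes tested (limma, adjusted p under 0.1). Of the 33, 26 were above wild type, and the median log2 fold change was 0.43, beside -0.026 over all genes tested. Both *10xBulge* libraries lay above both wild-type libraries for 17 members, or 51.5%, beside 28.9% of all genes, and below for 4, or 12.1%, beside 33.2%. Leaving out N1 or N2 changed which members passed the threshold, and without N2 some that were not named above entered. Of the called members named above, only *Kit* and *Pou5f1* stayed past it in both cases. The values of the others kept their sign over all 18 alternatives, with a lowest log2 fold change of 1.44 for *Ddit4*, 1.21 for *Foxo1*, 1.16 for *Tspan8*, 1.10 for *Sohlh2* and 1.08 for *Lin28a*, and ranges of -1.69 to -1.23 for *Nanos3* and -1.67 to -0.74 for *Dmrtb1*. With each library scaled to the same total, a scaling that moved the median of all genes by 0.38, 13 members were higher and 1 lower. The share of all genes called under that scaling is not given here, so the 13 cannot be read against it.

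Among the differentiation genes, *Kit*, the receptor for stem cell factor, had 1652 and 1473 normalized counts for wild type, 1119 and 1807 for *10xPerf*, then 5556 and 4738 for *10xBulge*. Both *10xBulge* libraries were above all 4 others. The gene rose by 1.72 on the log2 scale (standard error 0.40, 95% interval from 0.81 to 2.63, limma adjusted p = 0.0127), and it remained past the threshold under all 18 alternatives. *Kit* is also transcribed in Leydig cells. Of 8 Leydig cell markers, 6 rose in *10xBulge* (75%, beside 11.4% of all genes tested) and none fell (beside 23.0%). Summed over the list, normalized counts were 54612 and 77479 for wild type and 319236 and 150962 for *10xBulge*. The part of Leydig cell RNA in the level of *Kit* was not tested.

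*Sohlh1* and *Sohlh2* encode helix-loop-helix partners that act at the start of differentiation, and *Sohlh2* alone of them passed the test. *Sohlh2* had 380 and 589 normalized counts for wild type, 360 and 664 for *10xPerf*, then 1280 and 1251 for *10xBulge*, without overlap between *10xBulge* and the other libraries. It rose by 1.42 on the log2 scale (standard error 0.45, limma adjusted p = 0.0466). *Sohlh1* had 208 and 242 for wild type, 101 and 193 for *10xPerf*, then 273 and 282 for *10xBulge*. Its *10xBulge* libraries were also the highest of the 6, but the log2 fold change of 0.31 did not pass the test (95% interval from -0.72 to 1.33, limma adjusted p = 0.664). The difference between the changes of the 2 genes was not tested.

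Helix-loop-helix factors bind the E-box, spelled CANNTG, and the promoters of these genes are shown for that reason. RefSeq windows of 250 bases before to 50 after the gene start (GRCm38.p6, first listed start) were matched for 24 of the 34 members. The E-box, which reads as CANNTG on both strands, was present in 15 of the 24, or 62.5%, beside 72.15% of 27025 genes with such a window. The form CACGTG, itself a case of CANNTG, was present 3 or more times in 24 of the 27025 genes, or 0.08881%, and 2 of these were members, *Sohlh1* with 3 and *Nxf2* with 5. This form was singled out after its counts were seen. The stretches below run 5′ to 3′ on the strand of the gene, with the E-box in capitals. For *Sohlh1* the first E-box starts 231 bases and the other 192 bases before the gene start (chr2:25847462-25847491 and chr2:25847423-25847452, minus strand). For *Nxf2* they start 80 and 42 bases before it (chrX:134964817-134964846 and chrX:134964779-134964808, minus strand), and for *Sohlh2*, with a single E-box of another form, 241 bases before it (chr3:55181794-55181823, plus strand).
Sohlh1, first: gctgcaagctatCACGTGggctgtgatcag
Sohlh1, other: tctgaaggtctgCACGTGaagcagggagtc
Nxf2, first: gcacgcaataacCACGTGagcctgcaatga
Nxf2, other: gcctgcaatgatCACGTGaacctccgttat
Sohlh2: cacaggcgtCAGATGggagtattttatcag

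A match of letters is not evidence of binding. Of the 2 members with repeated CACGTG, *Sohlh1* is described above, and *Nxf2*, an X-linked mRNA export factor, had a log2 fold change of 0.50 in *10xBulge* (95% interval from -0.72 to 1.71, limma adjusted p = 0.535). Its wild-type libraries differed by more than 3-fold, at 305 and 940 normalized counts, and enclosed the *10xBulge* values of 793 and 721. Neither of these genes was past the threshold in any comparison before alternatives were tried. With library totals, *Sohlh1* passed it in *10xBulge* against *10xPerf*. Leaving out N2 changed the outcome for *Nxf2* in *10xBulge* against wild type.

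*Dmrtb1*, which is known to act as spermatogonia leave mitosis for meiosis, moved the other way. It had 50577 and 32401 normalized counts for wild type, 29497 and 30375 for *10xPerf*, then 24260 and 12677 for *10xBulge*. Both *10xBulge* libraries were below the other 4. All 10 spermatid markers also fell in *10xBulge*, beside 23.0% of all genes tested, and the part of spermatid RNA in the level of *Dmrtb1* was not tested. The fall of 1.21 on the log2 scale (95% interval from -2.29 to -0.13) passed the threshold narrowly (limma adjusted p = 0.0959) and lost the call in 11 of 18 alternatives, with an adjusted p of up to 0.352. Its level made up most of the summed counts of the 6 differentiation genes, so that this sum was 54489 and 36860 for wild type and 35306 and 21454 for *10xBulge*, while 5 of the 6 genes, or 83.3%, were above wild type in both *10xBulge* libraries, beside 28.9% of all genes. *Rhox13*, an X-linked homeobox gene of differentiating spermatogonia, was among the 5, with 153 and 137 normalized counts for wild type, 77.0 and 149 for *10xPerf*, then 249 and 230 for *10xBulge* (log2 fold change 0.72, limma adjusted p = 0.286). *Dmrt1* was likewise above wild type without passing the test (0.73, limma adjusted p = 0.254).

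Of the genes of progenitors and of the whole undifferentiated population, 3 of 13 rose (23.1%, beside 11.4% of all genes tested) and 2 fell (15.4%, beside 23.0%) in *10xBulge*, with a median log2 fold change of 0.34. *Ddit4*, an inhibitor of mTORC1 signalling, had 1030 and 904 normalized counts for wild type, 655 and 1259 for *10xPerf*, then 2725 and 2861 for *10xBulge* (1.53 on the log2 scale with a standard error of 0.43, limma adjusted p = 0.0281). *Foxo1*, a forkhead factor of stem cell maintenance, had 733 and 898 for wild type, 548 and 872 for *10xPerf*, then 2441 and 1873 for *10xBulge* (1.40 on the log2 scale with a standard error of 0.41, limma adjusted p = 0.0356). In both genes the *10xBulge* libraries were well above all 4 others, and neither gene is confined to germ cells. *Lin28a*, an RNA-binding protein that blocks let-7 maturation, had 206 and 246 for wild type, 235 and 427 for *10xPerf*, then 551 and 491 for *10xBulge* (1.20 on the log2 scale with a standard error of 0.44, limma adjusted p = 0.0747).

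*Pou5f1*, which encodes the pluripotency factor OCT4, was the member with the smallest p in *10xBulge* against wild type. It had 89.4 and 85.8 normalized counts for wild type, 136 and 80.0 for *10xPerf*, then 17.5 and 15.0 for *10xBulge*. The *10xBulge* libraries were far below all the others, with a log2 fold change of -2.37 (standard error 0.50, 95% interval from -3.50 to -1.23, limma adjusted p = 0.00756) that stayed past the threshold under all 18 alternatives. *Pou5f1* has pseudogene copies in the genome, with which reads may be shared, and its level is uncertain in that respect. *Nanos3*, an RNA-binding protein of progenitors, had 83.8 and 79.0 for wild type, 28.8 and 60.6 for *10xPerf*, then 24.6 and 27.7 for *10xBulge*. It fell by 1.60 on the log2 scale (standard error 0.54, limma adjusted p = 0.0577). In *10xPerf* it was also below wild type in both libraries, by 0.94 on the log2 scale, without passing the test (limma adjusted p = 0.853).

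*Zbtb16*, the zinc finger repressor also called PLZF, had 402 and 525 normalized counts for wild type, 306 and 495 for *10xPerf*, then 1440 and 600 for *10xBulge*. The *10xBulge* libraries were the highest but differed by 1.26 from each other on the log2 scale, and the log2 fold change of 1.02 did not pass the test (95% interval from -0.14 to 2.17, limma adjusted p = 0.177). *Sall4*, another zinc finger factor, had 713 and 484 for wild type, 252 and 399 for *10xPerf*, then 1011 and 523 for *10xBulge*, and *Uchl1* had 5344 and 2096, then 1256 and 2244, then 3972 and 4633. In both genes the *10xBulge* and wild-type libraries overlapped. *Neurog3*, a helix-loop-helix factor of progenitors primed to differentiate, was low throughout, with 31.0 and 11.1 for wild type, 6.11 and 6.84 for *10xPerf*, then 15.7 and 20.1 for *10xBulge*, and its log2 fold change in *10xBulge* was -0.065 (95% interval from -1.62 to 1.49). The direction of so small a value turned to 0.30 with library totals and to 0.077 with the GC trend removed.

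Of the 12 stem cell genes tested, 1 rose (8.33%, beside 11.4% of all genes tested) and none fell (beside 23.0%) in *10xBulge*, with a median log2 fold change of 0.43 (limma, 1 gene with an unadjusted p under 0.05). *Tspan8*, a tetraspanin on the surface of cells with high *Id4*, was the one that rose, from 108 and 207 normalized counts in N1 and N2 to 482 and 442 in *10xBulge*, with 121 and 194 in *10xPerf*. Its log2 fold change was 1.62 (standard error 0.48, 95% interval from 0.54 to 2.70, limma adjusted p = 0.0355). *Id4*, an inhibitory helix-loop-helix protein of stem cells, had 1639 and 1687 for wild type, 1358 and 1593 for *10xPerf*, then 2405 and 3747 for *10xBulge*, without overlap (log2 fold change 0.85, limma adjusted p = 0.147). It passed the threshold in 3 alternatives, among them library totals and the removal of the GC trend.

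The receptor pair for GDNF was not called in *10xBulge*. *Gfra1* had 191 and 163 normalized counts for wild type, 175 and 173 for *10xPerf*, then 260 and 216 for *10xBulge* (log2 fold change 0.43, 95% interval from -0.50 to 1.35, limma adjusted p = 0.479). *Ret* had 256 and 191 for wild type, 66.9 and 105 for *10xPerf*, then 495 and 277 for *10xBulge* (log2 fold change 0.74, 95% interval from -0.35 to 1.82, limma adjusted p = 0.291). For both genes the *10xBulge* libraries were above wild type. *Etv5*, an ETS factor induced by GDNF, was higher without passing the test, with 2553 and 2109 for wild type, 1514 and 2412 for *10xPerf*, then 4865 and 3187 for *10xBulge* (log2 fold change 0.76, limma adjusted p = 0.220). *Etv5* is not confined to germ cells, and the part of other cells in its level was not tested. *Foxc2* and *Glis3*, transcription factors of stem cells and their precursors, were at 0.71 and 0.41 on the log2 scale.

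Over the 24 members that were not called in *10xBulge*, log2 fold changes ran from -1.01 to 1.02, with 20 above 0 and 4 below. The median over all genes tested, called or not, was -0.026, and the share of uncalled genes above 0 is not given here. The standard errors of these members ran from 0.40 to 0.86. *Eomes*, a T-box factor of a subset of stem cells, had the lowest value, at -1.01 (limma adjusted p = 0.233), with both *10xBulge* libraries below wild type. *Bcl6b*, *Egr4*, *Pou3f1*, *Sall1*, *Cdh1* and *Upp1* lay between 0.10 and 0.43. *Taf4b*, a subunit of a germ cell form of TFIID, was at 0.90 (limma adjusted p = 0.203). *Tex15*, which acts in piRNA-directed silencing and in meiosis, was at -0.69 with an interval of -2.06 to 0.68.

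**Figure D2:**
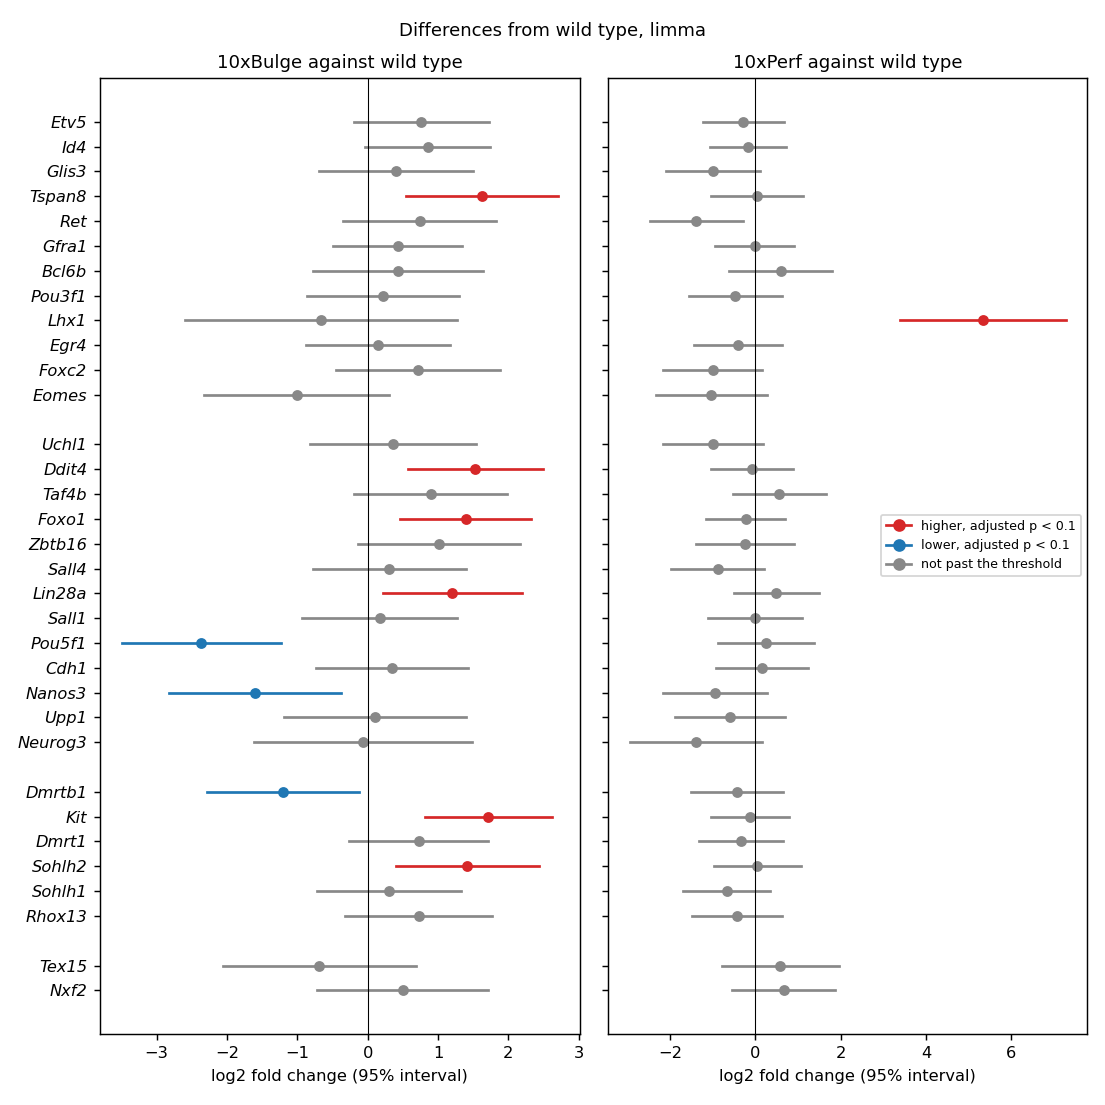
Points are log2 fold changes of each member against wild type with 95% confidence intervals from limma, and colours mark an adjusted p under 0.1. In *10xBulge*, 6 members are coloured as higher and 3 as lower, and in *10xPerf* *Lhx1* alone is coloured.

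By their medians, undifferentiated and differentiating genes were both above wild type in both *10xBulge* libraries. The median of the 25 undifferentiated genes, relative to the wild-type mean on the log2 scale, was 0.62 in N5 and 0.37 in N6, and that of the 6 differentiating genes was 0.93 and 0.52. The first minus the second was -0.31 in N5 and -0.16 in N6, and in the other 4 libraries it ran from -0.11 to 0.10. The 2 *10xBulge* libraries were thus both below the others in that difference, N6 by less than the gap between N1, at 0.10, and N2, at -0.10. The difference between the classes was not tested, and *Dmrt1*, counted here as differentiating, is not confined to that class.

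Lists of other testis cells give the setting for these values. In *10xBulge*, 11.4% of all genes tested rose and 23.0% fell. Of 10 Sertoli cell markers 6 rose, or 60% (median log2 fold change 1.17), led by *Fshr*, *Wt1* and *Rhox5*. Of 8 Leydig cell markers 6 rose, or 75% (1.77), led by *Hsd3b1*, *Cyp17a1* and *Hsd17b3*. Of 8 macrophage markers 7 rose, or 87.5% (1.68), led by *Lyz2*, *Adgre1* and *Cd163*. None of these 26 markers fell. Of 8 markers of peritubular and vascular cells none was called in either direction (median 0.38, limma, 0 with an unadjusted p under 0.05). Of 10 spermatocyte markers, *Dmc1* alone rose (1.60, limma adjusted p = 0.0446). That is 10%, near the share of all genes, and the median was 0.028. All 10 spermatid markers fell (median -7.31). The median of the members, 0.43, was therefore between those of the spermatocyte and the Sertoli cell lists, and the part of cell makeup in the members' values was not tested.

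**Figure D3:**
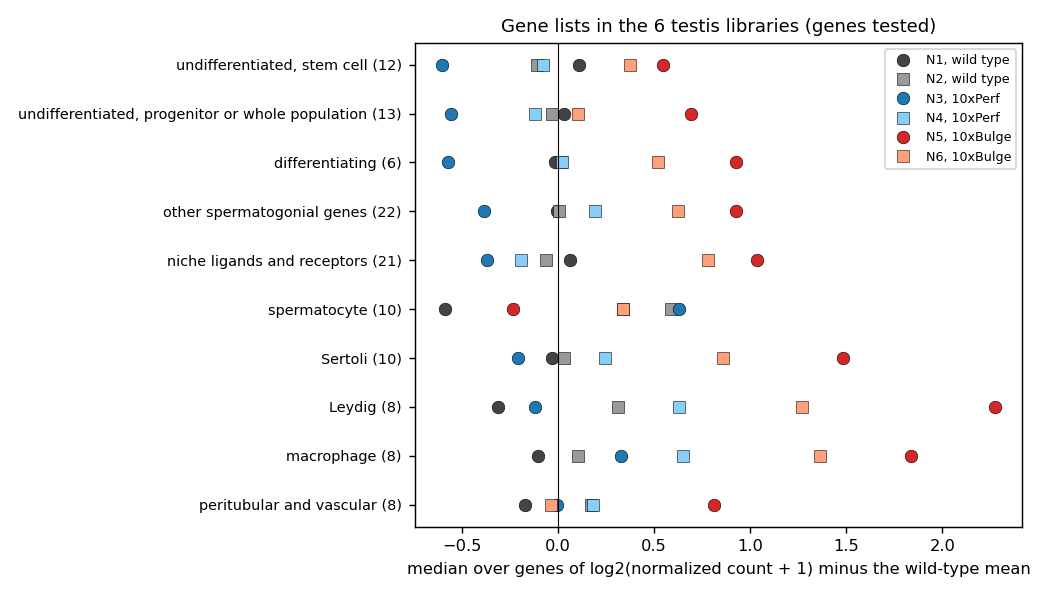
Points are the median over a list's genes of log2(normalized count + 1) minus the wild-type mean in each library, with the number of genes tested in brackets. The *10xBulge* points of the stem cell, progenitor and differentiating classes lie between 0.10 and 0.93 (*Nxf2* and *Tex15*, not drawn, had a median of -0.48 in N5 and 0.29 in N6), and those of the Sertoli, Leydig and macrophage lists between 0.86 and 2.27.

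Genes that act with the members were counted in the same way. Of 22 other spermatogonial genes tested, 1 rose (4.55%, beside 11.4% of all genes tested) and none fell (beside 23.0%) in *10xBulge*, and the median log2 fold change was 0.83. The gene that rose was *Piwil4*, a PIWI protein of fetal and undifferentiated germ cells, with 46.2 and 28.0 normalized counts for wild type, 27.0 and 47.8 for *10xPerf*, then 117 and 78.0 for *10xBulge* (1.38, limma adjusted p = 0.0967). Both *10xBulge* libraries were above wild type for 12 of the 22, or 54.5%, beside 51.5% of the members and 28.9% of all genes. In *10xPerf* none of the 22 was called (limma, 1 with an unadjusted p under 0.05).

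Of 21 ligands and receptors of the spermatogonial niche, 8 rose (38.1%, beside 11.4% of all genes tested) and 3 fell (14.3%, beside 23.0%) in *10xBulge*. *Bmp4*, a ligand that promotes differentiation, rose from 59.7 and 58.9 normalized counts in N1 and N2 to 764 and 331 (log2 fold change 3.06, limma adjusted p = 0.00204), with 21.8 and 21.7 in *10xPerf*. *Csf1r*, the receptor of the macrophage growth factor and also on the macrophage list, and *Fgfr2*, a fibroblast growth factor receptor, rose by 1.89 and 1.75 on the log2 scale. *Gdnf*, chosen after its values were seen because it is the ligand of *Gfra1* and *Ret*, had 57.4 and 52.7 normalized counts for wild type, 47.4 and 63.3 for *10xPerf*, then 156 and 106 for *10xBulge* (1.21, limma adjusted p = 0.0920). The 3 that fell belong to other branches of the same ligand and receptor family. They were the co-receptor *Gfra2* (-3.65, limma adjusted p = 0.000253) and the ligands *Artn* (-2.24, limma adjusted p = 0.0104) and *Nrtn* (-1.22, limma adjusted p = 0.0772). *Gfra2* went from 2249 and 1390 normalized counts in N1 and N2 to 180 and 109 in N5 and N6, without overlap, beside 1779 and 1423 in *10xPerf*.

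In *10xPerf* against wild type, a comparison that shares its control libraries with the one above, *Lhx1* was the only member called. That is 1 higher of 33, or 3.03%, beside 0.467% of all genes tested, and 0 lower, beside 0.492% (0.959% in either direction). *Lhx1* reached 10 normalized counts only in N3 and N4, so it entered the test through the group where it is high. This share and the p-value of *Lhx1* both rest on that filter. At an unadjusted p under 0.05 there were 2 members, *Lhx1* and *Ret*. The median log2 fold change was -0.24, beside 0.018 over all genes tested, with 10 of 33 members above 0. Both *10xPerf* libraries were below both wild-type libraries for 11 members, or 33.3%, beside 19.8% of all genes, and above for 2, or 6.06%, beside 20.2%. N3 was the lower of the pair: the median of the members relative to the wild-type mean was -0.56 in N3 and -0.028 in N4. Without N3 or N4, 0 members were called, because *Lhx1* then no longer had 10 normalized counts in 2 libraries.

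*Lhx1* encodes a LIM homeodomain factor that GDNF induces in cultured stem cells. It had 7.68 and 3.52 normalized counts for wild type, 250 and 254 for *10xPerf*, then 8.67 and 0.611 for *10xBulge*. The *10xPerf* libraries were close to each other and far above all the others, of which 1 was below the worth of 3 reads. The log2 fold change was 5.34 (standard error 0.86, 95% interval from 3.40 to 7.27, limma adjusted p = 0.0316). Leaving out N1 or N2 gave 5.81 and 4.87 with an adjusted p of 0.314 and 0.392, and a pseudocount of 0.1 gave 5.57 with 0.203. Against *10xBulge* the difference was 6.0 on the log2 scale, higher in *10xPerf* (limma adjusted p = 0.000673), and it stayed past the threshold in all 15 alternatives that kept the gene.

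Other genes of the GDNF response were not called in *10xPerf*. *Ret* was below wild type in both *10xPerf* libraries, by 1.39 on the log2 scale (standard error 0.48, limma adjusted p = 0.580). *Gfra1* stood at -0.021, *Etv5* at -0.28, *Egr4* at -0.41, *Pou3f1* at -0.47 and *Bcl6b* at 0.59, and none of these 5 passed the test. No other stem cell gene had a positive log2 fold change than *Lhx1*, *Bcl6b* and *Tspan8*, the last at 0.039.

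The neighbours of *Lhx1* on chromosome 11 were read by their distance between gene starts on GRCm38, the build of the annotation used for positions. Within 500 kb, 13 genes were tested in *10xPerf* and 0 were called in either direction (limma, 1 with an unadjusted p under 0.05). The nearest, *Aatf*, 12 kb away, was at 0.27 (95% interval from -0.93 to 1.47). The one with the small unadjusted p was *Car4*, 432 kb away, with 52.3 and 25.5 normalized counts for wild type, 124 and 130 for *10xPerf*, then 17.8 and 24.0 for *10xBulge* (1.76, limma adjusted p = 0.424). The *10xPerf* libraries were also the 2 highest for *Car4*. *Lhx1os*, the divergent antisense RNA beside *Lhx1*, was at 4.12 and 2.95 normalized counts in *10xPerf* and at 0 to 1.22 in the others, too low to be tested.

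**Figure D4:**
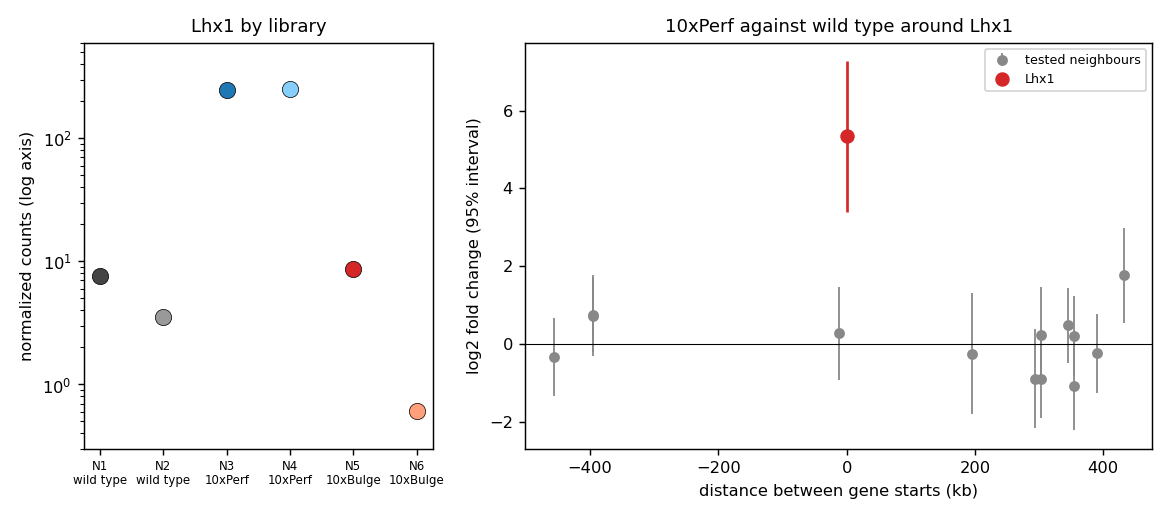
The left panel gives normalized counts of *Lhx1* in each library on a log axis, and the right panel the log2 fold change of *Lhx1* and of 13 tested genes within 500 kb in *10xPerf* against wild type, with 95% confidence intervals, against the distance between gene starts. *Lhx1* stands at 5.34, and the neighbours between -1.09 and 1.76.

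The direct comparison of both knock-in lines, which reuses the libraries above, had more calls among the members. Of 33, 14 were higher in *10xBulge* than in *10xPerf*, or 42.4%, beside 12.9% of all genes tested, and 2 were lower, or 6.06%, beside 24.1% (37.0% of all genes in either direction). The 14 were *Ret*, *Kit*, *Foxo1*, *Ddit4*, *Foxc2*, *Tspan8*, *Sohlh2*, *Glis3*, *Id4*, *Uchl1*, *Sall4*, *Rhox13*, *Zbtb16* and *Etv5*, and the 2 were *Lhx1* and *Pou5f1*. The median log2 fold change was 0.98, beside -0.067 over all genes tested. Both *10xBulge* libraries were above both *10xPerf* libraries for 23 members, or 69.7%, beside 30.7% of all genes, and below for 6, or 18.2%, beside 35.3%. The number past the threshold fell whichever of the libraries was left out, wild type included, and most of all without N3. A fit of only the 2 genotypes compared gave 10 higher members in place of 14. The differences themselves kept their sign, and over all 18 alternatives the lowest log2 value was 1.71 for *Ret*, 1.32 for *Foxc2*, 1.29 for *Foxo1*, 1.25 for *Tspan8* and 1.15 for *Ddit4*, and of the 14 it was smallest for *Zbtb16*, at 0.62.

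*Ret* had the largest difference of the 14, at 2.13 on the log2 scale (standard error 0.48, 95% interval from 1.04 to 3.21, limma adjusted p = 0.0101). It was 0.74 above wild type in *10xBulge* and 1.39 below it in *10xPerf*, neither of which passed the test. *Foxc2*, a forkhead factor of a quiescent subset of stem cells, showed the same arrangement, with 35.8 and 30.9 normalized counts for wild type, 14.8 and 17.5 for *10xPerf*, then 58.0 and 52.5 for *10xBulge*. The 3 genotypes did not overlap, and the difference between the lines was 1.72 (standard error 0.51, limma adjusted p = 0.0354). *Glis3* had 515 and 254 for wild type, 140 and 236 for *10xPerf*, then 470 and 490 for *10xBulge* (1.39, standard error 0.49, limma adjusted p = 0.0604). *Gfra1*, by contrast, differed by 0.45 between the lines (95% interval from -0.47 to 1.37, limma adjusted p = 0.450).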

How the data were processed

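Adult testis RNA of 3 genotypes was compared, with 2 libraries each. The authors assigned reads to GRCm39 transcripts with salmon and deposited DESeq2-normalized counts, a signal per gene that does not hold whole reads, so count tests were not run. The deposited table also holds 4 columns of the authors' own comparisons (log2 fold changes and adjusted p-values for *10xPerf* and *10xBulge* relative to wild type), which were not used. The 23782 genes that reached 10 in 2 or more libraries were modelled by genotype as log2(value + 1) in limma 3.58.1 (R 4.3.3), with a trend of variance on level. Benjamini-Hochberg adjustment ran over all genes tested, with a threshold of 0.1. The smallest p of an exact permutation test for 2 against 2 is 0.333. The libraries of a genotype came from different mice by the labels. Members and gene lists were chosen with earlier results of these data known. Values per library are given for members past the threshold in any comparison and for *Gfra1*, *Ret*, *Zbtb16*, *Id4*, *Nanos2*, *Nanos3*, *Neurog3*, *Kit*, *Sohlh1*, *Sohlh2* and *Dmrtb1*. Of each related list, at most 3 called genes with the smallest p per direction are named. Transcript lengths and GC content came from the longest GENCODE transcript on GRCm38, and promoters from RefSeq on GRCm38.p6. Alternatives were 3 other scalings (library totals, upper quartiles, a trimmed mean of log ratios), 2 other filters, a fit of the 2 genotypes compared, an adjusted p of 0.05, a fold change of 2, pseudocounts of 0.1 and 10, no mean-variance trend, removal of the trend with GC content (loess, span 0.3), and leaving out each library. The fit was tested on simulated data. Figures were drawn with matplotlib 3.10.9.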

Additional observations from a re-analysis of the deposited data

How the results depend on the processing

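No paired analysis was possible because the libraries of the 3 genotypes carry different numbers (N1 to N6). With 2 libraries per genotype, small changes are often missed, and a lone library left in a genotype was assumed to vary like the others. Shares of all genes called under the alternatives are not given in this section, and its counts describe the members alone. Against wild type, members higher in *10xBulge* went from 6 to 13 with library totals, which added *Dmrt1*, *Etv5*, *Id4*, *Ret*, *Rhox13*, *Taf4b* and *Zbtb16*, and to 10 with the GC trend removed. Members lower went from 3 to 1 with library totals and with an adjusted p under 0.05. Leaving out a library changed which members passed the threshold, and some left the set while others entered it. Of the members called with all libraries, only *Kit* and *Pou5f1* stayed past it both without N1 and without N2. The values of the other called members kept their sign. In *10xPerf* the 1 member higher went to 0 with the filter of 10 in every library, which removes *Lhx1*, and with a pseudocount of 0.1, and to 0 or 1 without a library (0 without N1, N2, N3 or N4). Higher members in *10xBulge* against *10xPerf* went from 14 to 9 with the filter of 1 in 1 library or a pseudocount of 0.1, to 7 with an adjusted p under 0.05, to 8 without the variance trend, and to 0 to 12 without a library (0 without N3), while lower members were 1 to 3. No called value changed sign. In *10xBulge*, *Neurog3* went to 0.30 under library totals and 0.077 once the GC trend was removed. In *10xPerf*, library totals turned *Ddit4* to 0.047, *Gfra1* to 0.11 and *Kit* to 0.00078, upper quartiles turned *Sohlh2* to -0.018 and *Tspan8* to -0.025, and removal of the GC trend turned *Ddit4* to 0.29, *Sohlh2* to -0.094 and *Tspan8* to -0.31. Leaving out each library gave, for *10xBulge*, -0.77 to 0.64 for *Neurog3*, -0.10 to 0.91 for *Glis3*, -0.32 to 1.03 for *Uchl1*, -0.17 to 0.78 for *Sall4* and -1.96 to 0.63 for *Lhx1*. For *10xPerf* it gave -0.56 to 0.38 for *Ddit4*, -0.13 to 0.092 for *Gfra1*, -0.39 to 0.49 for *Sohlh2*, -0.43 to 0.51 for *Tspan8*, -0.62 to 0.056 for *Etv5*, -0.57 to 0.10 for *Foxo1*, -0.48 to 0.21 for *Kit*, -0.13 to 0.63 for *Pou5f1*, -0.90 to 0.042 for *Rhox13* and -0.58 to 0.11 for *Zbtb16*. Library totals moved the median of all genes by 0.38, 0.13 and 0.25 in the 3 comparisons. The causes of these shifts were not tested beyond the filter that removes *Lhx1*. The median of the 6 differentiation genes in *10xPerf* was 0.020 without N3, against -0.38 with all libraries.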
